A study of Homo sapiens with 4 samples.

Results

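Deoxynucleotide synthesis and salvage enzymes were examined in the human neuroblastoma line SK-N-BE(2), with and without knockdown of SAPCD2. The 9 genes were listed by name, by their role in the pathway and with earlier results of these libraries known: TYMS, DUT, RRM1, RRM2, RRM2B, TK1, DCK, DTYMK and SAMHD1. All 9 were found among the 64252 genes of the count table, and all 9 passed the filter on low counts, which left 18779 tested genes. RNA-seq was performed on cells carrying scrambled shRNA (sh-Scb, the control group) and on cells carrying shRNA against SAPCD2 (sh-SAPCD2), with 2 libraries per group. In both groups the shRNA was delivered by lentivirus and the cells were selected with puromycin, so the control cells also carry an integrated vector. The labels do not say whether the libraries of a group came from separate cultures, and p-values therefore measure only the spread between these libraries.

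DNA replication consumes the deoxynucleotides dATP, dGTP, dCTP and dTTP. Ribonucleotide reductase makes their precursors by reducing ribonucleoside diphosphates, with RRM1 as the large catalytic subunit, RRM2 as the small subunit of dividing cells and RRM2B as a small subunit that p53 can induce and that also serves resting cells. Thymidylate synthase (TYMS) methylates dUMP to dTMP, and the dUTPase DUT supplies dUMP while it keeps uracil out of DNA. The kinases TK1 and DCK return thymidine and deoxycytidine to the pools, DTYMK phosphorylates dTMP, and SAMHD1 degrades deoxynucleoside triphosphates. In dividing cells TYMS, RRM2 and TK1 are best known as genes expressed around S phase.

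RefSeq promoter windows, from 250 bases before to 50 bases after an annotated start on GRCh38.p14, were held for 8 of the 9 genes, with 13 windows in all, and RRM2B had none. Letters that the transcription factor family E2F is known to bind (TTTCCCGC, TTTCGCGC, TTTGCCGC or TTTGGCGC on either strand) were found in 3 windows, in TYMS, DUT and DCK, against 3.3% of 35116 windows of the same length. The CCAAT box (CCAAT on either strand) was found in 6 windows of 5 genes, against 34.6% of all windows. A cell cycle homology region, searched as TTTGAA or TTTAAA on either strand, was found in 5 windows of 4 genes, against 24.0%. RRM2 had 3 CCAAT boxes in 1 window, which 3.26% of all windows had. The windows of 4 genes that fell after SAPCD2 knockdown and of SAMHD1, whose level is not shown to have changed, are given below, 5′ to 3′ along the gene, with matches in capitals. For genes with several windows the one with the most matches is shown. The other 3 windows of DUT held none, and the other windows of TK1 and RRM2 held 1 match each.
TYMS, chr18:657403-657702, plus strand: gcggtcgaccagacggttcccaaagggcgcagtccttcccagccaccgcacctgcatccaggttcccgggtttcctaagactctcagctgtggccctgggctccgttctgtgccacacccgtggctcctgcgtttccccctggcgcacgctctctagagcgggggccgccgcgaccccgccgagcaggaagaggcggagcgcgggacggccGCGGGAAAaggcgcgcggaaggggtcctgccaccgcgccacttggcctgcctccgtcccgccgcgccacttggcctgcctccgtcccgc
DUT, chr15:48331947-48332246, plus strand: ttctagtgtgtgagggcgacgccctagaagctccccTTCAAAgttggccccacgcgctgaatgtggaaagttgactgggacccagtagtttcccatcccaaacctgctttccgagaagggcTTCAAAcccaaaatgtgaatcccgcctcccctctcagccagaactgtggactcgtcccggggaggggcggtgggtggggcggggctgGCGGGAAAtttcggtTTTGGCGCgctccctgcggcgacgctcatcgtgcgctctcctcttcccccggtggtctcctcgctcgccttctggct
RRM2, chr2:10122489-10122788, plus strand: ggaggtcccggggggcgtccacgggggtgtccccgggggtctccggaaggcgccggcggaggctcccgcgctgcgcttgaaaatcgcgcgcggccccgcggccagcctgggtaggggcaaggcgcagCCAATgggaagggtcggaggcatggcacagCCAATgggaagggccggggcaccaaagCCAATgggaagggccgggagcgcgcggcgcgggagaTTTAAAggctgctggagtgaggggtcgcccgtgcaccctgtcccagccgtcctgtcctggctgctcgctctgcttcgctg
TK1, chr17:78187003-78187302, minus strand: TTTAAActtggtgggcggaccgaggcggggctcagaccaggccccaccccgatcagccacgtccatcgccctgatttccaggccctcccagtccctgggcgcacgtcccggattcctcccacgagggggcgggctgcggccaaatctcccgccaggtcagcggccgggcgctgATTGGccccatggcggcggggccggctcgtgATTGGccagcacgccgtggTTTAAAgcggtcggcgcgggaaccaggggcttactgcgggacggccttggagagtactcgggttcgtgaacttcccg
SAMHD1, chr20:36951659-36951958, minus strand: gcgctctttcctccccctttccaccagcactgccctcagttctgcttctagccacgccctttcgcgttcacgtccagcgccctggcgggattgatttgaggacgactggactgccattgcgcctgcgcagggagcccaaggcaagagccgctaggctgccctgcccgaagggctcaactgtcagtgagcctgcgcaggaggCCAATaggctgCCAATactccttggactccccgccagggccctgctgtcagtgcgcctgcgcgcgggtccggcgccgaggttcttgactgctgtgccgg

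In TYMS the capitals mark an E2F match at bases −39 to −32 from the start. In DUT they mark E2F matches at −42 to −35 and at −27 to −20, after cell cycle homology letters that begin at −214 and −129. In RRM2 they mark CCAAT boxes that begin at −123, −93 and −66, followed by cell cycle homology letters at −30 to −25. In TK1 they mark cell cycle homology letters that begin at −250 and −27 around CCAAT boxes on the reverse strand that begin at −77 and −46. The letters at −250 are the same site as the match at −98 in the other, overlapping window of TK1. In SAMHD1 the capitals mark CCAAT boxes that begin at −49 and −38. Such letters were thus held by genes that fell and by genes that were not called, since DTYMK also had CCAAT boxes and DCK had an E2F match at 22 to 29 bases after the start. A match describes the sequence and shows neither that a factor was bound nor which element the letters belong to. The search took only the exact letters given above, so a window without a match can still hold a site with other letters.

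**Figure D1:**
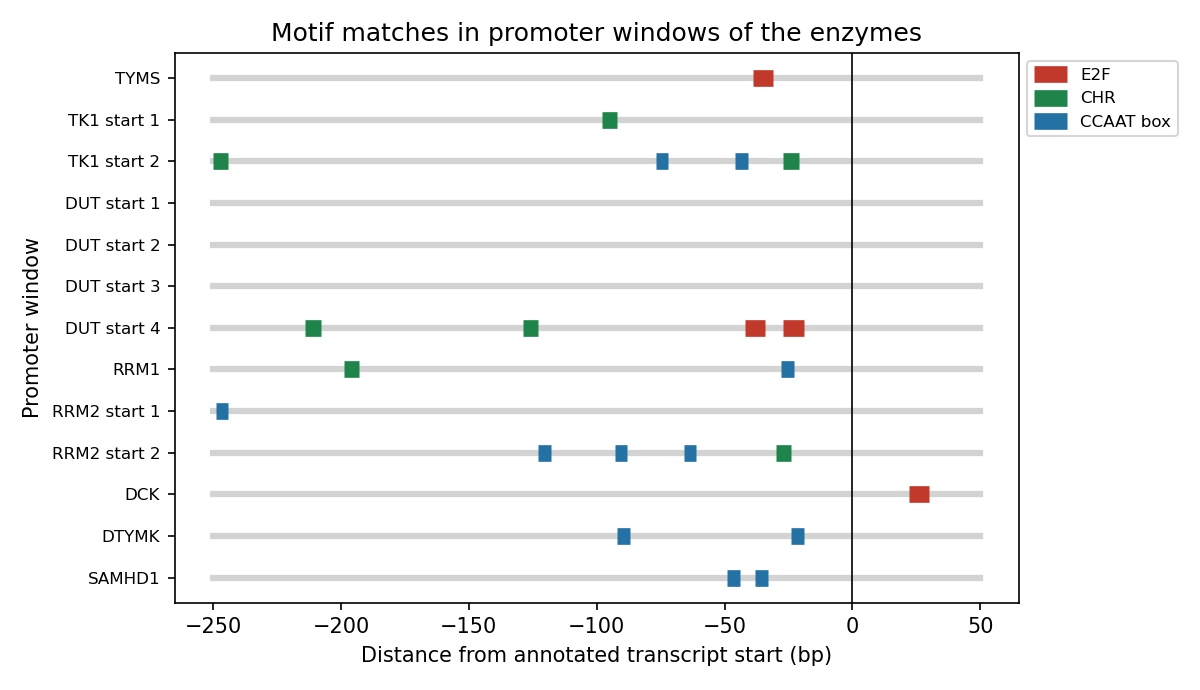
Positions of E2F, CCAAT box and cell cycle homology region (CHR) matches in the 13 RefSeq promoter windows of 8 genes, in bp from the annotated transcript start; each grey line is 1 window and each coloured block 1 match. E2F letters lie in the windows of TYMS, DUT and DCK, and the window of RRM2 start 2 holds 3 CCAAT boxes.

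The libraries held from 25347900 to 31850997 counts, and 3 counts, taken as the smallest detectable amount, equaled 0.0955 to 0.119 CPM (counts relative to the library total, corrected by TMM factors). This floor covers counting error only. SAPCD2 had 2308 and 2263 counts with sh-Scb against 895 and 1648 with sh-SAPCD2, which left 42.7% and 63.3% of the mean control CPM in the 2 knockdown libraries. All 10 markers of adrenergic neuroblastoma cells passed the filter (4 fell and 1 rose), as did 4 of 8 markers of mesenchymal, glial and blood cells, while PRRX1 and SOX10 were at 0 in all libraries. Of these 4, CD68 was called higher, with 1 and 2 counts in the sh-Scb and 11 and 12 in the sh-SAPCD2 libraries, a call lost without the first (adjusted p = 0.329) or the second control library (adjusted p = 0.195), without the first sh-SAPCD2 library (adjusted p = 0.096) and without the filter on low counts (adjusted p = 0.0852, edgeR). The summed level of those 8 markers was 14.5 to 15.8 CPM in the control group and 17.5 to 19.1 CPM in the sh-SAPCD2 group, and its part in the results was not tested. The sh-SAPCD2 libraries differed more from each other than the control libraries did. The chi-square per degree of freedom was 38.6 against 4.47, each over the genes with enough counts in that pair of libraries.

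Of the 9 genes, 5 fell in SAPCD2-knockdown cells, 0 rose and 4 were not called at an adjusted p of 0.05 (quasi-likelihood test of edgeR, adjusted by Benjamini-Hochberg across every tested gene, as for each adjusted p of edgeR given here). The 5 were DUT, TYMS, TK1, RRM2 and RRM1, and the first 4 fell beyond 2-fold. Over all tested genes, 12.5% were called lower, 12.4% higher, 5.15% lower beyond 2-fold and 4.69% higher beyond 2-fold. The median log2 fold change of the 9 genes was −0.84, against 0.02 over all tested genes. Their summed level was 987.1 and 984.3 CPM in the control libraries and 500.2 and 507.3 CPM in the sh-SAPCD2 libraries. In bulk RNA, fewer cells in S phase and less RNA per cell cannot be told apart. The paper reports, from flow cytometry, that fewer cells of this line were in S phase after SAPCD2 knockdown. The part of this shift in the RNA levels here was not tested. Of 40 other S-phase genes, 36 fell and 0 rose, with a median log2 fold change of −1.05, and their part in the fall of the enzymes was not tested. The list of S-phase genes was compiled with earlier results of these libraries known and is not independent evidence of its direction.

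**Figure D2:**
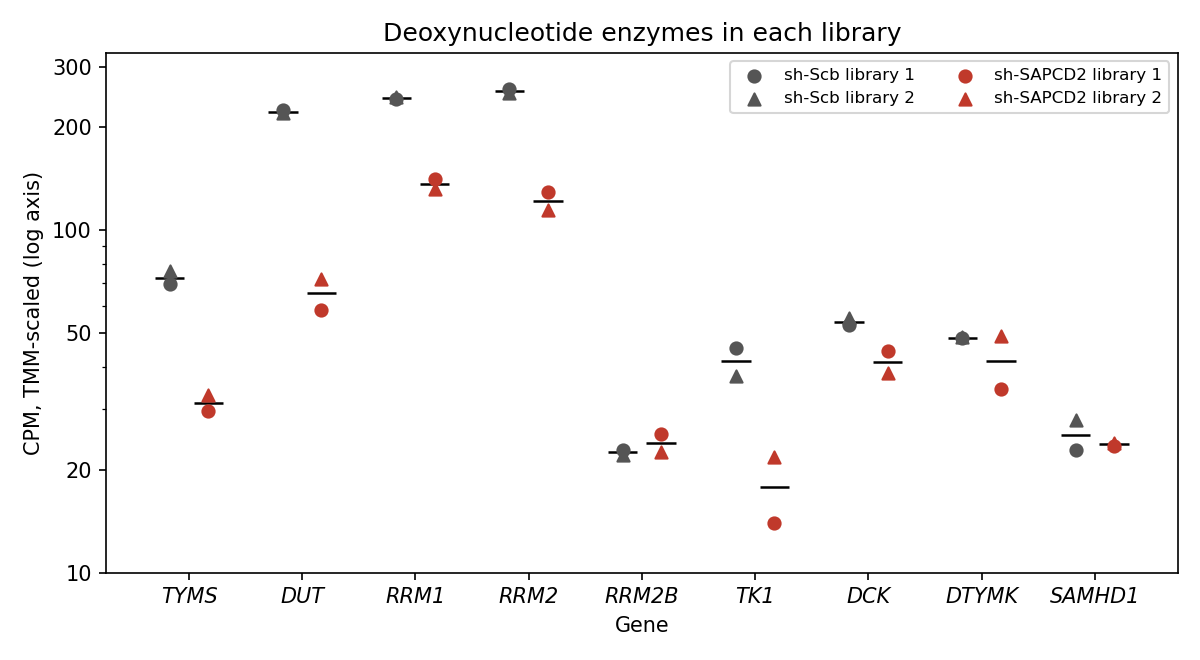
TMM-scaled CPM (log axis) of the 9 enzymes in each library; points are libraries, and black bars are group means of n = 2. The groups lie apart, with sh-SAPCD2 lower, for TYMS, DUT, RRM1, RRM2, TK1 and DCK and overlap for RRM2B, DTYMK and SAMHD1. Of all tested genes, the groups lay apart with sh-SAPCD2 lower in 33.4% and higher in 33.5%.

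The enzymes of thymidylate synthesis had the largest fall, in DUT. DUT (ENSG00000128951), at chr15:48331011-48343373 (plus strand, hg38), had 224.4 and 220.1 CPM in the control libraries and 58.7 and 72.3 CPM in the sh-SAPCD2 libraries. Both knockdown libraries thus held less than any control library, at 26.4% and 32.5% of the control mean. The level fell from 222.2 ± 3.08 to 65.5 ± 9.63 CPM (SD, n = 2 per group). On the log2 scale the difference was −1.76 (SE 0.131, 95% confidence interval −2.08 to −1.45, adjusted p = 0.00203 by edgeR). Only 1.93% of tested genes had a lower log2 fold change. DUT overlaps the antisense gene DUT-AS1, which had 218 and 293 counts with sh-Scb against 111 and 200 with sh-SAPCD2. Strandedness of the counting is not given in the sources used here, so reads of overlapping genes on opposite strands cannot be told apart. The 8 annotated pseudogenes of DUT held together 0.325% of its counts.

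TYMS (ENSG00000176890), at chr18:657653-673578 (plus strand), had 69.5 and 75.8 CPM in the control libraries. In the sh-SAPCD2 libraries it had 29.7 and 33.0 CPM, so that the groups did not overlap. TYMS fell from 72.7 ± 4.46 to 31.3 ± 2.33 CPM (SD, n = 2 per group). On the log2 scale the difference was −1.21 (SE 0.124, 95% confidence interval −1.52 to −0.91, adjusted p = 0.0033 by edgeR). It overlaps, on the opposite strand, ENOSF1, with 577 and 598 counts with sh-Scb against 298 and 316 with sh-SAPCD2, and TYMSOS, with 24 to 34 counts in the 4 libraries. The summed counts of ENOSF1 and TYMSOS were smaller than those of TYMS in every library, where TYMS had 1921, 2087, 751 and 1035 counts.

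Of the ribonucleotide reductase subunits, RRM2 and RRM1 fell and RRM2B was not called. RRM2 (ENSG00000171848), at chr2:10120698-10211725 (plus strand), had 258.1 and 251.5 CPM in the control libraries and 129.3 and 114.4 CPM in the sh-SAPCD2 libraries. Both knockdown libraries lay below both controls. The mean fell from 254.8 ± 4.68 to 121.8 ± 10.5 CPM (SD, n = 2 per group). On the log2 scale the difference was −1.06 (SE 0.107, 95% confidence interval −1.32 to −0.81, adjusted p = 0.00322 by edgeR). RRM1 (ENSG00000167325), at chr11:4094707-4138932 (plus strand), had 242.9 and 245.1 CPM in the control libraries and 141.2 and 132.1 CPM in the sh-SAPCD2 libraries. It fell from 244 ± 1.55 to 136.6 ± 6.42 CPM (SD, n = 2 per group). On the log2 scale the difference was −0.84 (SE 0.0969, 95% confidence interval −1.07 to −0.60, adjusted p = 0.0043 by edgeR). RRM1 was the called gene with the smallest fall among the 5, and its interval reached a 2-fold fall only at its lower end. The antisense gene RRM1-AS1 had 0 counts in all libraries.

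RRM2B (ENSG00000048392), at chr8:102204502-102238961 (minus strand), had 22.9 and 22.1 CPM in the control libraries and 25.5 and 22.4 CPM in the sh-SAPCD2 libraries. The groups overlapped, since the second sh-SAPCD2 library lay between the controls. Its log2 fold change was 0.09 (SE 0.139, 95% confidence interval −0.24 to 0.43, adjusted p = 0.659 by edgeR), which leaves room for a change from 0.844-fold to 1.35-fold. RRM2B overlaps no other annotated gene.

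Ratios within a library do not depend on its scaling. Per kilobase of annotated transcript, RRM2 had 16.5 and 16.7 times the counts of RRM2B in the control libraries and 7.43 and 7.47 times in the sh-SAPCD2 libraries. The balance of the small subunits thus moved by −1.16 on the log2 scale, with both knockdown ratios below both control ratios (exact two-sided permutation test, p = 0.333, the smallest that 2 against 2 libraries allow). RRM2 relative to RRM1 was 1.02 and 0.99 in the control libraries and 0.883 and 0.835 in the sh-SAPCD2 libraries, a difference of −0.23 on the log2 scale (exact two-sided permutation test, p = 0.333). TYMS relative to TK1, de novo synthesis against salvage of thymidylate, was 1.36 and 1.79 in the control libraries and 1.89 and 1.34 in the sh-SAPCD2 libraries. These ratios overlapped, with a difference of 0.03 on the log2 scale (exact two-sided permutation test, p = 1.0). TK1 relative to DCK was 1.51 and 1.18 in the control libraries and 0.551 and 0.993 in the sh-SAPCD2 libraries, a difference of −0.85 (exact two-sided permutation test, p = 0.333). None of these 4 permutation tests could reach 0.05 in this design.

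**Figure D3:**
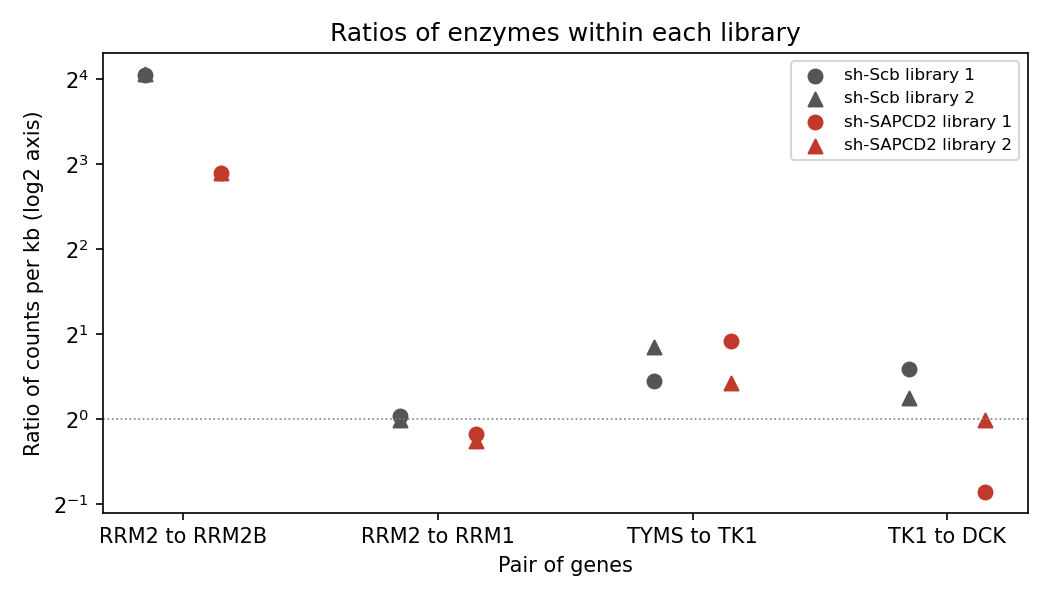
Ratio of counts per kb of transcript for 4 pairs of enzymes (log2 axis); each point is 1 library, and the dotted line marks equal levels. RRM2 relative to RRM2B lies at 16.5 and 16.7 in the control group and at 7.43 and 7.47 in the sh-SAPCD2 group, while TYMS relative to TK1 overlaps between the groups.

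Among the kinases, TK1 fell, and DCK and DTYMK were not called. TK1 (ENSG00000167900), the cytosolic thymidine kinase, is located at chr17:78174091-78187233 (minus strand) and overlaps no other annotated gene. It had 45.4 and 37.5 CPM in the control libraries and 13.9 and 21.7 CPM in the sh-SAPCD2 libraries. Both groups were spread more widely than for TYMS, but they did not overlap. The level fell from 41.5 ± 5.55 to 17.8 ± 5.52 CPM (SD, n = 2 per group). On the log2 scale the difference was −1.21 (SE 0.233, 95% confidence interval −1.78 to −0.65, adjusted p = 0.0157 by edgeR). When all 34935 genes with counts were tested, without a filter, TK1 was not called (log2 fold change −1.21, adjusted p = 0.062 by edgeR).

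DCK (ENSG00000156136), the deoxycytidine kinase, at chr4:70992538-71030914 (plus strand), had 52.8 and 55.5 CPM in the control libraries and 44.3 and 38.3 CPM in the sh-SAPCD2 libraries. The groups did not overlap, as was the case in that direction for 33.4% of all tested genes. The log2 fold change of −0.39 missed the threshold (SE 0.128, 95% confidence interval before adjustment −0.70 to −0.08, adjusted p = 0.0714 by edgeR). DCK passed it at −0.25 (adjusted p = 0.0394) with each library corrected for GC content and transcript length, and at −0.50 (adjusted p = 0.00583) without the first and −0.29 (adjusted p = 0.0369) without the second sh-SAPCD2 library, all by edgeR. DCK overlaps MOB1B on the same strand, which had 1994 and 1940 counts with sh-Scb against 2673 and 2300 with sh-SAPCD2.

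DTYMK (ENSG00000168393), the thymidylate kinase, at chr2:241675747-241686944 (minus strand), had 48.3 and 48.8 CPM in the control libraries. In the sh-SAPCD2 libraries it had 34.3 and 49.0 CPM, so that the first lay below both controls and the second above both. Its log2 fold change was −0.22 (SE 0.184, 95% confidence interval −0.67 to 0.23, adjusted p = 0.418 by edgeR). Without the second sh-SAPCD2 library it was −0.50 (adjusted p = 0.00733), without the first 0.01 (adjusted p = 0.948), and with the correction for GC content and length −0.34 (adjusted p = 0.0217, edgeR), where DTYMK was called lower. TK1 and DTYMK, with transcripts of 60.3% and 57.9% GC, have the highest GC content of the 9 genes, and both were higher in the second than in the first sh-SAPCD2 library, as were DUT, TYMS, SAMHD1 and SAPCD2. The part of GC content in this difference was not tested.

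SAMHD1 (ENSG00000101347), the triphosphohydrolase, at chr20:36890229-36951893 (minus strand), had 22.8 and 27.8 CPM in the control libraries and 23.4 and 24.0 CPM in the sh-SAPCD2 libraries. Both knockdown values lay between the controls. Its log2 fold change was −0.10 (SE 0.151, 95% confidence interval −0.46 to 0.27, adjusted p = 0.676 by edgeR), so that a change from 0.726-fold to 1.21-fold is within the interval. The breakdown enzyme was thus not called, whereas DUT, TYMS and both subunits of the RRM1 and RRM2 form of the reductase were lower.

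**Figure D4:**
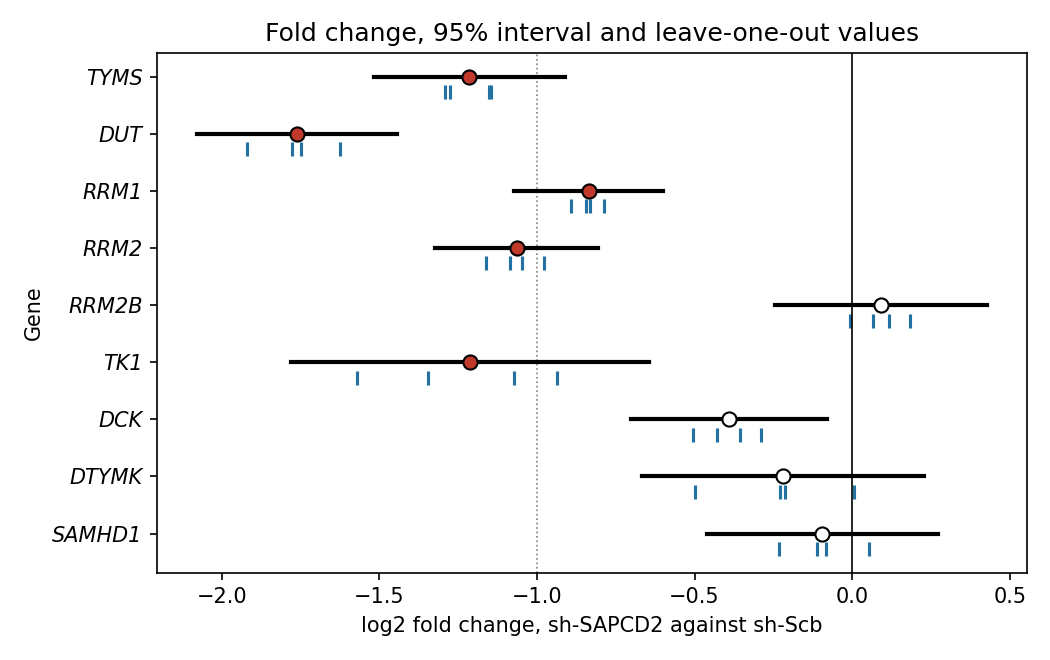
Log2 fold change of each enzyme in sh-SAPCD2 against sh-Scb libraries; circles are edgeR values, filled at an adjusted p under 0.05, black lines are 95% confidence intervals, and blue ticks are the values with each of the 4 libraries left out. TYMS, DUT, RRM1, RRM2 and TK1 stay below 0 throughout, whereas ticks of RRM2B, DTYMK and SAMHD1 lie on both sides of it.

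Levels of different genes were set side by side per kilobase of transcript. In the control group, DUT had the highest level at 103.8 CPM per kb, followed by RRM2 at 78.2, RRM1 at 77.6, DTYMK at 46.2, TYMS at 45.1, TK1 at 29.0, DCK at 21.6, SAMHD1 at 5.45 and RRM2B at 4.71 CPM per kb. The 2 control values overlapped between RRM2 and RRM1 and between DTYMK and TYMS, which therefore have no order. In the sh-SAPCD2 group, RRM1 had the highest mean at 43.5 CPM per kb, followed by DTYMK at 39.6, RRM2 at 37.4, DUT at 30.6, TYMS at 19.4, DCK at 16.5, TK1 at 12.5, SAMHD1 at 5.10 and RRM2B at 5.02 CPM per kb. The values of DTYMK, at 32.7 and 46.6 CPM per kb, overlapped those of RRM1, RRM2 and DUT, and the values of SAMHD1 lay within those of RRM2B. DUT thus went from a level above all other enzymes to one below RRM1 and RRM2.

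The other genes of nucleotide metabolism were taken from 7 lists of linked steps. Of their 75 tested genes, 16 (21.3%) were called lower and 12 (16%) higher, against 12.5% and 12.4% of all tested genes. Leaving out 1 library moved these counts, to 6 lower and 6 higher without either the first or the second control library, 24 and 31 without the first, and 29 and 13 without the second sh-SAPCD2 library. Counts over all tested genes, 2339 lower and 2326 higher with all libraries, also fell without either control library and rose without either sh-SAPCD2 library. Without the second sh-SAPCD2 library they stayed close to even between lower and higher, whereas those of the lists tilted to lower. Without the filter on low counts 8 genes of the lists were lower and 5 higher, and of the genes named below GGH, GUK1, TK2, SLC25A33, SLC29A1, SLC29A3, TYMP, GLRX, GSR, UMPS, CTPS2 and PRPS2 were then not called (adjusted p from 0.0527 to 0.103, edgeR).

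**Figure D5:**
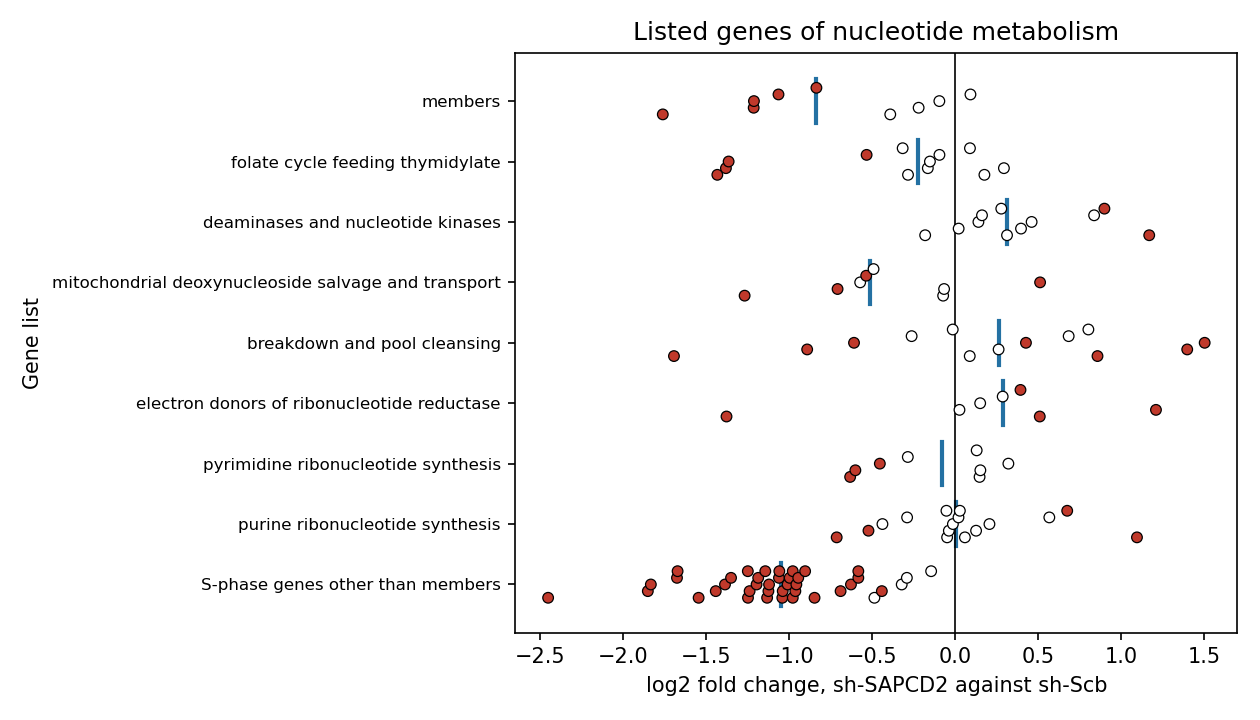
Log2 fold change of the tested genes in the lists of nucleotide metabolism, with the 9 enzymes on top and S-phase genes at the bottom; each circle is 1 gene, filled at an adjusted p under 0.05, and blue bars are list medians. The 9 enzymes have a median of −0.84 and the S-phase genes of −1.05, while the other lists lie between −0.51 and 0.31.

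The folate cycle gives TYMS its methyl group. Of 12 genes, 4 fell and 0 rose, with a median log2 fold change of −0.22. SHMT1, the cytosolic serine hydroxymethyltransferase, fell by 1.43 on the log2 scale, from 22.0 ± 0.677 to 8.12 ± 0.985 CPM (SD, n = 2 per group, SE 0.161 on the log2 scale, edgeR adjusted p = 0.00406). GGH, which trims folate polyglutamates and is named here after its values were seen, fell by 0.53 and was not called without either control library (adjusted p = 0.245 and 0.293, edgeR). The mitochondrial enzymes SHMT2 and MTHFD2 had log2 fold changes of −0.15 and −0.16 and were not called. With the correction for GC content and length SHMT2 was called lower, at −0.22 (adjusted p = 0.0197, edgeR).

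The deaminases and nucleotide kinases that act on these pools held 2 genes that rose and 0 that fell of 11 tested, with a median of 0.31. CDA, cytidine deaminase, was not tested, with 0, 0, 0 and 2 counts. CMPK1, a kinase of CMP, UMP and dCMP, rose by 0.90 on the log2 scale, with 2023 and 2020 counts in the control libraries and 3732 and 3964 in the knockdown libraries (SE 0.117, edgeR adjusted p = 0.00569). GUK1, guanylate kinase, rose by a log2 fold change of 1.17 (adjusted p = 0.0183 by edgeR, and 0.0731 without the filter on low counts, where it was not called), with 2477 and 2427 counts with sh-Scb against 3770 and 7886 with sh-SAPCD2. The second sh-SAPCD2 library held most of the rise in GUK1, and 7 genes of this list were called higher without the first and 3 without the second sh-SAPCD2 library.

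Mitochondrial salvage and nucleoside transport held 3 genes that fell and 1 that rose of 8, with a median of −0.51. TK2, the mitochondrial thymidine kinase, fell from 16.8 ± 2.15 to 10.3 ± 1.26 CPM (SD, n = 2 per group), or −0.71 on the log2 scale (SE 0.178, edgeR adjusted p = 0.034), and was not called without the first (adjusted p = 0.0615) or the second control library (adjusted p = 0.276). DGUOK, deoxyguanosine kinase of mitochondria, had a log2 fold change of −0.07 (adjusted p = 0.786, edgeR), and without the second sh-SAPCD2 library was called at −0.28 (adjusted p = 0.0382). The nucleoside transporters SLC29A3 and SLC29A1 fell by 1.27 and 0.54 on the log2 scale. SLC25A33, a mitochondrial pyrimidine nucleotide carrier, rose by 0.51. The calls of SLC29A1 and SLC25A33 were lost without either control library, with adjusted p from 0.151 to 0.329 (edgeR's quasi-likelihood test). No gene of this list was called lower without the filter on low counts.

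Breakdown and cleansing of the pools went both ways, with 3 genes lower and 4 higher of 13. UPP1, uridine phosphorylase, rose from 2.63 ± 0.033 to 7.46 ± 0.387 CPM (SD, n = 2 per group), to 283.8% of the control mean (edgeR adjusted p = 0.00593). NT5C3A, a pyrimidine nucleotidase, fell by 0.61 on the log2 scale, a call lost without either control library (adjusted p = 0.15 and 0.243). TYMP, thymidine phosphorylase, had 15 and 16 counts with sh-Scb against 35 and 50 with sh-SAPCD2, and rose to 264.5% of the control mean CPM (adjusted p = 0.0363 by edgeR). DESeq2 did not call TYMP (adjusted p = 0.12), and edgeR did not without either control library (adjusted p = 0.194 and 0.16), without the second sh-SAPCD2 library (adjusted p = 0.0786) or with the correction for GC content and length (adjusted p = 0.0843).

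Ribonucleotide reductase draws electrons from thioredoxin and glutaredoxin. Of 7 genes of these systems, 1 fell and 3 rose. The gene that fell was TXN2, the mitochondrial thioredoxin, from 59.6 ± 1.22 to 22.9 ± 0.857 CPM (SD, n = 2 per group), or −1.38 on the log2 scale (SE 0.119, edgeR adjusted p = 0.00262). The cytosolic thioredoxin TXN had a log2 fold change of 0.03 (adjusted p = 0.889) and was not called. GLRX, the cytosolic glutaredoxin, rose from 4.26 ± 1.09 to 9.86 ± 0.372 CPM and TXNRD1, the cytosolic thioredoxin reductase, from 352.6 ± 1.46 to 502.2 ± 42.4 CPM (SD, n = 2 per group). Their log2 fold changes were 1.21 and 0.51 (adjusted p = 0.0154 and 0.0176, edgeR). TXNRD1 was not called without either control library (adjusted p = 0.237 and 0.249), and GLRX was not called without the second (adjusted p = 0.0607). The third gene that rose was GSR, glutathione reductase, at 0.39, named here after its values were seen. The call of GSR was lost without either control library (adjusted p = 0.434 and 0.438) and with the replicate block (adjusted p = 0.066, edgeR).

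Ribonucleotides are the substrates of the reductase. In pyrimidine synthesis, 3 of 8 genes fell and 0 rose, with CTPS1 and CTPS2, which make CTP from UTP, at log2 fold changes of −0.63 and −0.45 and UMPS, which makes UMP, at −0.60 (adjusted p = 0.00858, 0.045 and 0.0277, edgeR). None of these 3 calls was kept without either control library, where adjusted p was from 0.116 to 0.371, and that of CTPS2 was also lost with the replicate block (adjusted p = 0.0506). CAD, which starts the pathway, had a log2 fold change of 0.32 (adjusted p = 0.0586) and was not called. With the correction for GC content and length CAD was called higher, at 0.18 (adjusted p = 0.0367, edgeR). Its log2 fold change was 0.37 without the first and 0.26 without the second sh-SAPCD2 library. In purine synthesis, 2 of 16 genes fell and 2 rose, shares close to the 12.5% and 12.4% of all tested genes, with a median of 0.00. GMPS, which makes GMP from XMP, fell by 0.71, IMPDH1, an IMP dehydrogenase, rose by 1.10 and ADSS2, an adenylosuccinate synthase, by 0.68. The adjusted p values were 0.0125 for GMPS, 0.00821 for IMPDH1 and 0.00912 for ADSS2 (edgeR's quasi-likelihood test). Without either control library GMPS (adjusted p = 0.0829 and 0.058) and ADSS2 (adjusted p = 0.117 in both) were not called. The other gene that fell, PRPS2, a PRPP synthetase named here after its values were seen, had a log2 fold change of −0.52 and was not called without either control library (adjusted p = 0.262 and 0.31, edgeR).

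The genes with the pattern most like that of the 9 enzymes were found by the Euclidean distance of log2 CPM, centered over the 4 libraries, from the enzymes' median profile of 0.41 and 0.42 in the control and −0.38 and −0.30 in the sh-SAPCD2 libraries. The nearest were TDP2 at 0.08, MBD6 at 0.084, ZNF395 at 0.085, PLEKHM3 at 0.085 and TMEM106C at 0.086. RRM1 was the nearest of the enzymes at 0.165, and DUT was the farthest at 1.03. A likeness over 4 libraries of 2 groups describes these libraries only.

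Annotated 3′ untranslated regions were searched for the 7-mer ACCTTCA, a seed match of sh-SAPCD2 #1 that 12.5% of 13583 tested coding genes carry. It was in 0 of the 9 genes. Shifted sites of this shRNA, which earlier work on these libraries singled out after the values were seen, were searched too. Those of its guide arm are TCCACCT, complementary over all of its letters, and the related CCACCTA, which ends in an added A. Those of its passenger arm are AGAGGTC, likewise complementary, and the related GAGGTCA, which also ends in an added A. RRM2 carries both guide arm sites and SAMHD1 the site GAGGTCA, while 33.9% of tested coding genes carry at least 1 of these sites. Of these, RRM2 fell and SAMHD1 was not called, and DUT, TYMS, TK1 and RRM1 fell without such a site. The paper also lists another shRNA against SAPCD2, whose sites were not searched. The labels do not say which of these shRNAs the libraries carried.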

How the data were processed

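Total RNA of 4 SK-N-BE(2) samples was sequenced by the authors as 150 bp paired-end reads, aligned to hg38 with HISAT2 2.2.0 and summarized with StringTie. The authors deposited whole-number counts per Ensembl gene, unscaled. The step that made counts, the Ensembl release and the strandedness are not given in the sources used here. Counts were tested in R 4.3.3 with edgeR 4.0.16 (TMM, filterByExpr with a minimum count of 10 and total of 15, quasi-likelihood test, Benjamini-Hochberg adjustment). A gene was called at an adjusted p under 0.05. The biological coefficient of variation was 15.4%. Alternatives were DESeq2 1.42.0 (the authors' tool), its size factors, library totals, no filter, a mean of 1 CPM, a replicate block, a loess correction for GC content and length (span 0.3), the last 2 together, and each library left out. Positions came from GENCODE 44, which held 56105 of 64252 genes, and promoters from RefSeq. The tests were tried on simulated data. The enzymes and lists were chosen with earlier results of these data known. Named genes were the 9 enzymes, SAPCD2, TK2, DGUOK, the 5 nearest in profile and, per list, the 3 called genes with the smallest p and those called beyond 2-fold. Others, given to complete a list, were chosen after values were seen. Further genes that this rule names are not reported here, though they stay in the counts of their lists.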

Additional observations from a re-analysis of the deposited data

How the results depend on the processing

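Of 108 log2 fold changes of the 9 enzymes under 12 alternatives, none reversed a called direction. Of these, 97 kept both their sign and their side of the threshold, whatever the size of the move. TK1, for example, ran from −1.57 to −0.94 with each library left out. Another 6 passed the threshold, 3 for DCK and 3 for DTYMK. Of these, 1 is not given above, DTYMK with the replicate block and the GC content and length correction together. It was at −0.34, with an adjusted p of 0.0232 by edgeR. TK1 without the filter on low counts was the 1 that lost the threshold. The other 4, of RRM2B, DTYMK and SAMHD1, changed sign without being called. From 4 to 7 of the enzymes were called lower, from 3 to 4 lower beyond 2-fold and 0 higher. With each library left out these counts were 5 to 7 and 3 to 4. Called genes of the 7 lists were 8 lower and 5 higher without the filter and, with each library left out, 6 to 29 lower and 6 to 31 higher. SAPCD2 was not called without the filter (log2 fold change −0.91, adjusted p = 0.0749). The log2 ratio of TYMS to TK1 ran from −0.22 to 0.27 with each library left out. With the first or the second sh-SAPCD2 library left out, NME2 ran from 0.35 to −0.41 and NT5C from 0.32 to −0.46, all by edgeR. The cause was not tested. The labels do not say whether same-numbered libraries form pairs. Their deviations had a correlation of −0.0188, which shows no shared deviation but cannot show how the libraries were prepared. With the replicate block, 2701 genes were lower and 2860 higher, and log2 fold changes were −1.22 for TYMS, −1.77 for DUT and −1.24 for TK1, with no enzyme's call changed. A library left out leaves 1 sample in its group, which is then assumed to vary like the other group. The main intervals of RRM2B, DTYMK and SAMHD1 span 0, and at this number of libraries a change of any size within them remains possible.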
